A study of Mus musculus with 140 samples.

Results

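Intronic m6A clusters were defined here as the clusters of the m6A eCLIP-seq immunoprecipitation (IP) libraries whose midpoint fell, on the same strand, inside a protein-coding gene but in no exon of any transcript. Genes were those of GENCODE vM21 on the mm10 mouse genome. The 38 m6A libraries listed 613298 such clusters among 6896555 clusters in all, between 9094 and 22441 per library. m6A eCLIP-seq crosslinks an antibody against N6-methyladenosine to fragmented RNA and compares the IP reads with an input library of the same sample. A cluster was called enriched when the deposited p of IP against input was 0.001 or less, and 42092 intronic clusters passed. There were 785, 1041.5 and 1720 enriched ones as the lowest, median and highest number per library. R6/2 mice carry a transgene with the first exon of human HTT and an expanded CAG repeat (line B6CBA-Tg(HDexon1)62Gpb/3J). They were set against non-transgenic (NT) mice, all aged 3 months, with 8 m6A libraries (4 males and 4 females) for each genotype in striatum and in cortex. The transgene yields only a short N-terminal fragment of huntingtin and is driven by the human HTT promoter. A second experiment used cortex of male C57Bl/6 mice of 2 months (3 libraries per treatment). At 5 weeks of age, 2 weeks before collection, these mice had been dosed in the cerebral ventricles with 500 ug of a TDP-43-targeting antisense oligonucleotide (ASO) or with PBS. The labels of that experiment name cortex whereas its treatment protocol names striatum, and the labels were followed.

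m6A is written on nascent RNA by a nuclear methyltransferase complex built around METTL3 and METTL14, at adenosines within the DRACH motif (D stands for A, G or U, R for A or G, and H for A, C or U). It is read by YTH-domain proteins and affects splicing, export, translation and decay, and in mature mRNA it lies mostly in long internal exons, near stop codons and in 3′ UTRs. Poly(A)-selected RNA, the material sequenced here, is mostly spliced, and intronic reads in it can come from unspliced or retained introns, from exons that an annotation lacks and from RNA made within an intron. TDP-43 is an RNA-binding protein that represses inclusion of cryptic exons from introns.

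Sequences of 29 bases are shown for 3 sets of intronic sites, where a site is a stretch covered by enriched clusters of at least 4 libraries. The sequence is the transcript strand, 5′ to 3′, of mm10 (GRCm38), centred on the DRACH pentamer closest to the middle of the site, with that pentamer in capitals and T for U. The first set holds sites found in every one of the 38 libraries, chosen from those with the highest enrichment over input.
1700025F22Rik, intron 5, chr19:11145154-11145182, - strand: caaagagctttgAGACTagagagtccgac
Epha6, intron 12, chr16:59842780-59842808, - strand: taactaaaactgAAACTtaaagaaattga
Gm37240, intron 5, chr3:84977454-84977482, - strand, no DRACH in the window: gactcccgactgcacacaccagctttgtg
Dram1, intron 1, chr10:88367274-88367302, - strand: aaacacatggtgGGACTcatggcccgagg
Pip5k1b, intron 1, chr19:24476387-24476415, - strand: agagcaagcactGAACTttgtcgattacg
The second set holds the leading DRACH site of host genes on which the comparisons below turn.
Rabgap1l, intron 15, chr1:160576621-160576649, - strand: tcaaatgtaatgTGACAgtggttttggat
Nos1ap, intron 13, chr1:170315930-170315958, - strand: ttcttgctctgcTAACTcaaccctgcctt
Nsun7, intron 4, chr5:66270426-66270454, + strand: tgttgctggcgtGGACAccagtaggccag
Kcnj6, intron 9, chr16:94759753-94759781, - strand: ttgaggtctgaaGGACAaaggagccccta
The third set holds 4 sites that separated R6/2 from NT striatum completely.
Amz1, intron 10, chr5:140758252-140758280, + strand: agagcgggtcagAAACTgtgaaataatcc
Dclk1, intron 20, chr3:55524833-55524861, + strand: aaccagccaaacAAACAaacaaacacagg
Ccdc30, intron 5, chr4:119393418-119393446, - strand: gagaactgattcTGACAattgttgcatgt
Fbxw4, intron 1, chr19:45659118-45659146, - strand: agataggcagttTGACCtagtaatatctg

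The m6A libraries listed between 136976 and 251639 clusters, of which 56382 to 98932 were enriched. Introns held 4.87 to 13.7% of the listed clusters but only 0.909 to 2.47% of the enriched ones. Enrichment was thus rarer in introns: 6.98% ± 1.41 of the listed intronic clusters passed the threshold, against 44.3% ± 4.53 of the listed exonic clusters (SD, n = 38). The region labels were checked on enriched exonic clusters: the summed number over 9 marker genes of medium spiny neurons was 95 to 219 in striatum libraries and 36 to 64 in cortex libraries, and that over 7 markers of cortical excitatory neurons was 37 to 73 in striatum and 93 to 117 in cortex libraries. Libraries of the ASO and PBS groups stood at 85 to 105 for the first list and at 112 to 120 for the second. Summed numbers over oligodendrocyte markers were 164 to 227 in striatum, 108 to 157 in cortex and 199 to 240 in the ASO and PBS libraries, and those over microglia markers 39 to 63, 33 to 53 and 67 to 74. For both lists the ASO and PBS libraries stood above every cortex library of the other experiment. The same held for the medium spiny neuron list and for vascular markers (38 to 46 against 16 to 29). Enriched clusters in all numbered 82374 to 98932 in the ASO and PBS libraries and 56382 to 79411 in those cortex libraries. The sums were not scaled to these totals. Aldh1l1 of the astrocyte list had no enriched cluster. Within the ASO and within the PBS group nearly all intervals were the same in the 3 libraries. A single cluster call for each treatment would give this, though no label says so. The spread within those groups is therefore too small, and p-values of the ASO comparison are too small with it.

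**Figure D1:**
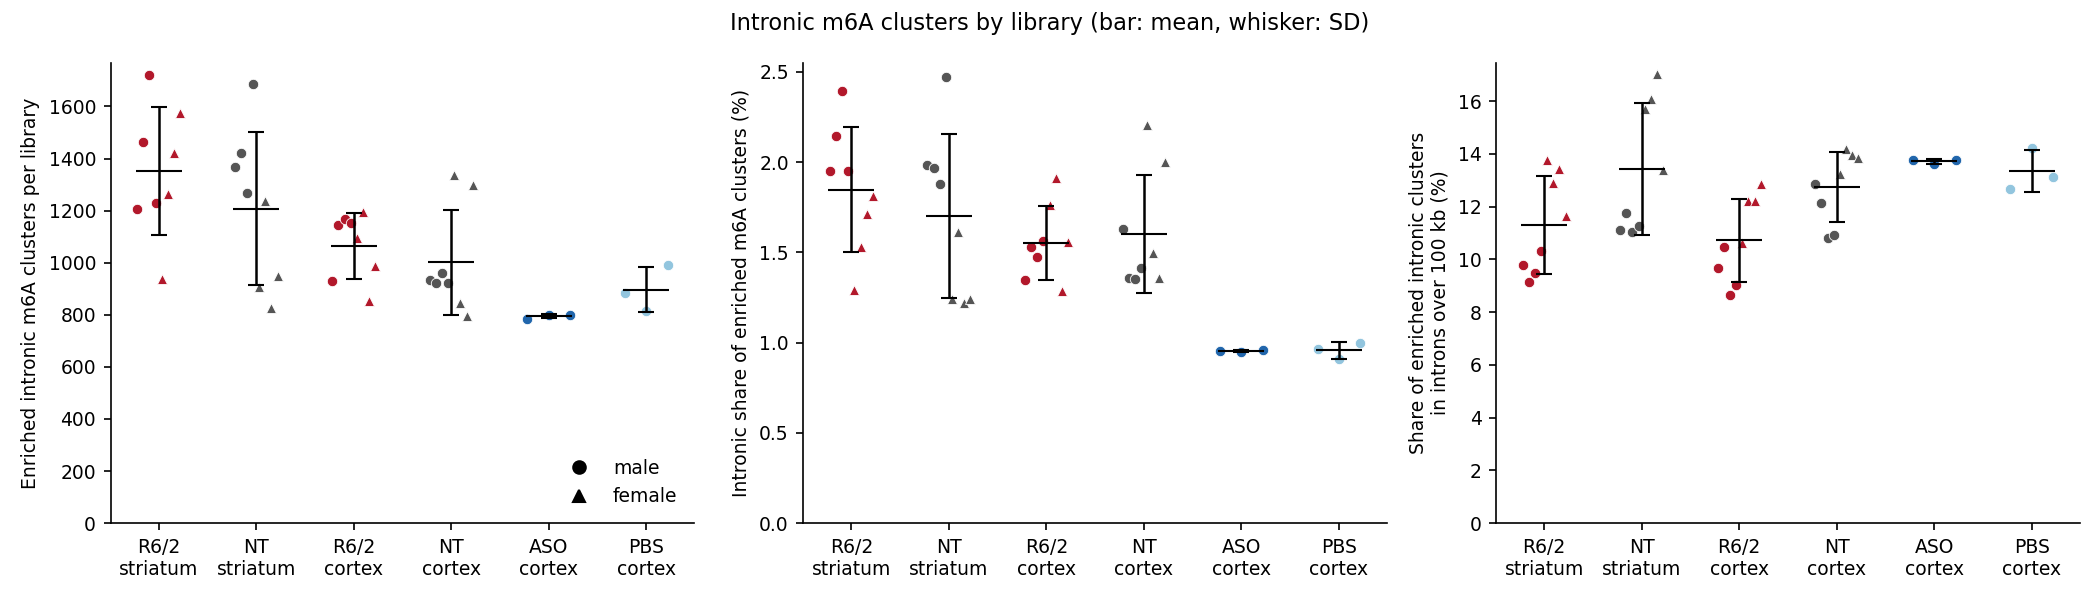
Number of enriched intronic m6A clusters, their share of all enriched m6A clusters (%) and the share of them in introns over 100 kb (%), with 1 point per library, circles for males and triangles for females, and mean and SD as bar and whisker. The intronic share overlaps between R6/2 and NT in both regions, whereas the share in introns over 100 kb averages 11.3% in R6/2 and 13.4% in NT striatum, and 10.7% in R6/2 and 12.8% in NT cortex.

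The enriched intronic clusters were spread over 2370 of 21938 protein-coding genes, and the 10 leading genes held 10.2% and the 100 leading genes 37.5% of them. An enriched intronic cluster was present in every library for 85 genes. Of the enriched intronic clusters, 77.1% lay in genes with an enriched exonic cluster in at least 19 libraries. The highest number fell on Gm20388, a gene model of unknown function on chromosome 8 (119910841 to 124345722, + strand) with 12, 26 and 34 clusters as lowest, median and highest per library. All of them lay in its first intron of 4384418 bases, and it had no exonic cluster. Rabgap1l, a GTPase-activating protein for Rab proteins (chromosome 1, 160219174 to 160793211, - strand), followed with 6, 14 and 35 clusters, 95.7% of them in intron 15 of 34, which spans 155103 bases. Nos1ap, an adaptor of neuronal nitric oxide synthase (chromosome 1, 170302668 to 170589861, - strand), had 4, 11 and 20, nearly all in its last intron of 14620 bases. Prdm16, a zinc-finger regulator of transcription, had 7, 10 and 15 in its first intron of 107791 bases. Apart from those of Gm20388, whose first intron spans nearly the whole gene, these clusters were thus concentrated in single introns, and the same held for the next genes of the order. Morn1 averaged 10.2 ± 2.22 clusters, all in intron 7. Pde4dip, which encodes the centrosome and Golgi scaffold myomegalin, averaged 9.53 ± 2.39, all in intron 27 of 48. Mia3, a cargo receptor at exit sites of the endoplasmic reticulum, averaged 8.66 ± 2.27, with 80.2% in intron 4 (SD, n = 38). Paqr3, a Golgi-anchored inhibitor of Raf, averaged 8.34 ± 2.21, Rbbp6, an RB-binding ubiquitin ligase, 6.82 ± 1.94, and Me3, a mitochondrial malic enzyme, 6.61 ± 4.60. Me3 ranged from 0 to 20 clusters per library.

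Several of these introns hold exons in another annotation. RefSeq transcripts of the same genome build were laid over the clusters, because the choice of members used GENCODE alone. A curated RefSeq exon held the midpoint of 12.1% ± 2.58 of the enriched intronic clusters, against 2.53% ± 0.68 of those not enriched and 0.0847% of all intronic bases. A further 17.5% ± 2.62 of the enriched ones lay in an exon that RefSeq only predicts, against 9.83% ± 1.98 of those not enriched and 1.66% of intronic bases (SD, n = 38). All clusters of Prdm16, 99.8% of those of Nos1ap, 95.7% of those of Rabgap1l and 80.2% of those of Mia3 lay in curated RefSeq exons, and all those of Morn1, Paqr3 and Rbbp6 in predicted ones. No cluster of Pde4dip did. Of those of Gm20388, 25.6% lay in curated and 7.80% in predicted exons only.

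Enriched clusters became scarcer per base as introns became longer. Introns were counted in the 8552 genes with an enriched exonic cluster in at least 19 libraries, so that expressed genes were compared. Introns under 1 kb made up 40.1% of the introns and 2.84% of the intron bases and held 13.4% of the enriched clusters of these genes, or 6.44 ± 1.12 clusters per library and megabase. The density was 2.16 ± 0.587 in introns of 1 to 10 kb, 0.956 ± 0.287 in those of 10 to 100 kb and 0.653 ± 0.198 in those over 100 kb (SD, n = 38). The longest class numbered 690 introns, with 22.1% of the bases and 10.6% of the enriched clusters. Listed clusters showed no such decline, at 17.1, 23.8, 13.4 and 22.7 per library and megabase from the shortest to the longest class. The share of listed clusters that were enriched was thus 37.6% in introns under 1 kb and 2.88% in those over 100 kb. Per intron the order turned: an enriched cluster in at least 1 library was found in 0.777% of the introns under 1 kb, 1.85%, 5.94% and 21.7% of those over 100 kb.

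**Figure D2:**
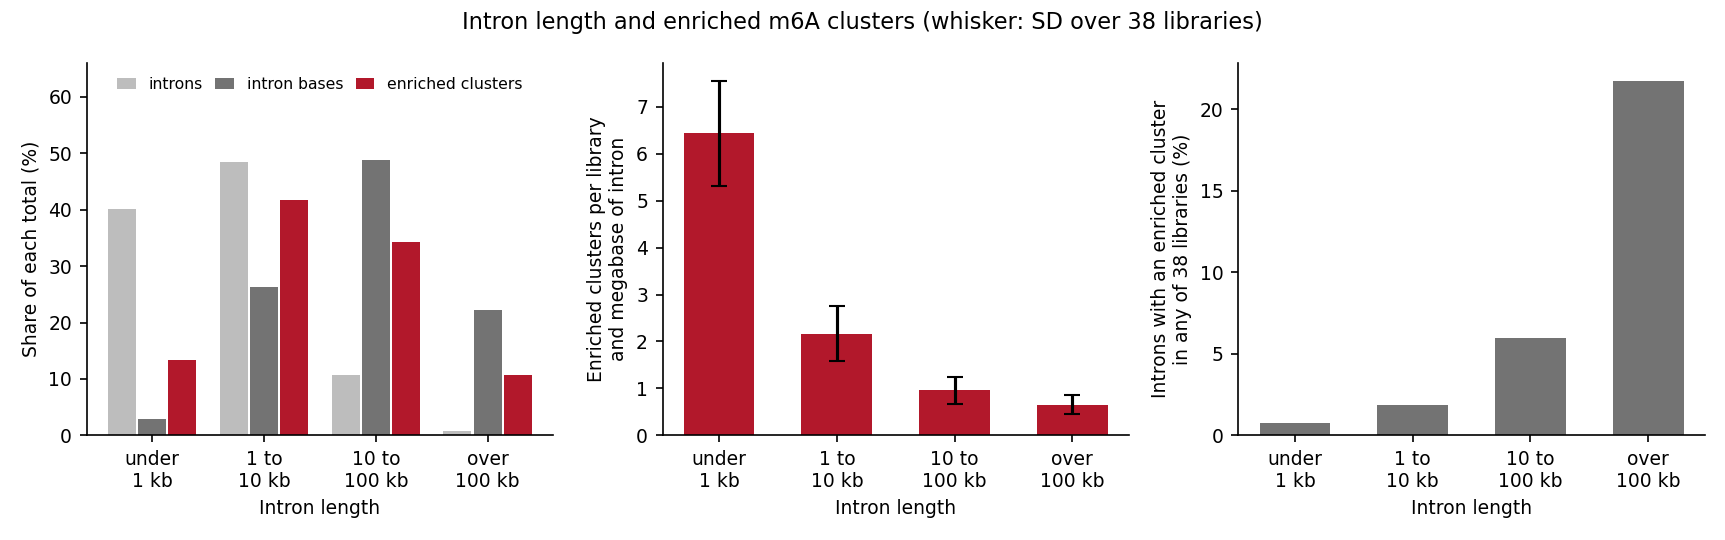
Intron length classes in 8552 genes with exonic m6A: share of introns, of intron bases and of enriched clusters (%), enriched clusters per library and megabase of intron (mean, with SD over 38 libraries), and share of introns with an enriched cluster in any library (%). Density is 6.44 clusters per megabase in the shortest and 0.653 in the longest class, whereas the share of introns with a cluster is 0.777% in the shortest and 21.7% in the longest class.

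Enriched clusters also lay closer to exons and more often in first introns than clusters that were listed but not enriched. The median distance to the nearest exon was 1179 ± 244 bases for enriched and 2874 ± 1116 bases for other intronic clusters, and 33.8% ± 4.66 against 14.9% ± 2.38 lay within 500 bases of an exon. First introns made up 8.66% of introns and 18.6% of intron bases, and they held 26.9% ± 2.11 of the enriched and 14.5% ± 1.66 of the other clusters (SD, n = 38). The 500 bases after a 5′ splice site held 18.1% ± 1.79 of the enriched clusters and the 500 bases before a 3′ splice site 14.1% ± 1.53. More lay after the 5′ splice site in 32 of 32 R6/2 and NT libraries (sign-flip permutation test over libraries, two-sided, 100000 resamples, p = 1e-05, the smallest they can give). In the ASO and PBS libraries the same shares were 23.1% ± 0.885 and 19.4% ± 1.18 (6 of 6 libraries, exact sign-flip p = 0.03125, the smallest 6 libraries allow). Repeats covered 28.9% of intronic bases and held 10.4% ± 1.79 of the enriched and 22.7% ± 4.88 of the other clusters.

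The DRACH motif was searched on the transcript strand in the 51 bases around each cluster midpoint. It was present at 77.0% ± 2.09 of the enriched intronic clusters, at 63.4% ± 1.09 of windows moved 500 bases along the same intron and at 68.6% ± 1.84 of the intronic clusters that were not enriched, and 60.5% of all windows of that length in introns hold it. Within a library, enriched intronic clusters had a higher median log2 fold over input than enriched clusters in coding sequence, 2.70 ± 0.183 against 2.10 ± 0.127, and in 3′ UTRs, at 2.06 ± 0.182 (SD, n = 32). The difference was positive in 32 of 32 libraries for both (sign-flip permutation p = 1e-05, adjusted p = 2.86e-05 over 20 tests). Only clusters that passed the p limit enter these folds, 6.98% of the listed intronic and 44.3% of the listed exonic ones. The part of this selection in the higher intronic folds was not tested. Their DRACH share, 77.1% ± 2.20, did not pass the test against coding sequence (77.4% ± 1.12, sign-flip permutation p = 0.312) and was lower than in 3′ UTRs (79.8% ± 0.904, lower in 31 of 32 libraries, adjusted p = 2.86e-05). Intronic clusters were more often 20 bases or narrower, 22.1% ± 5.81 against 9.65% ± 2.29 in coding sequence, and more often above a log2 fold of 5, 9.16% ± 4.64 against 0.101% ± 0.0492 (each higher in 32 of 32 libraries, adjusted p = 2.86e-05). In the 6 ASO and PBS libraries the share of narrow clusters, 20.6% ± 4.99 against 19% ± 2.51, did not pass (exact sign-flip p = 0.406). There the intronic DRACH share, 76.3% ± 0.890, was above that in coding sequence (74.6% ± 0.303) in 6 of 6 libraries (exact sign-flip test, adjusted p = 0.0446). Against 3′ UTRs (77.2% ± 0.212) it did not pass (exact sign-flip p = 0.0938).

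Width separated the intronic clusters into kinds with different properties. The 9265 clusters of 20 bases or fewer (22%) had a median log2 fold of 4.07 ± 0.794, yet the motif stood at 63.0% ± 3.35 of them and at 65.2% ± 3.25 of the windows moved along the intron. Clusters of 21 to 50, 51 to 100 and over 100 bases had lower median log2 folds of 2.64 ± 0.266, 2.47 ± 0.112 and 2.43 ± 0.119, and DRACH shares of 73.9% ± 4.42, 78.9% ± 4.01 and 85.1% ± 2.74 (SD, n = 38). RefSeq exons held 13.2% ± 6.57 of the narrowest and 33.1 to 36.7% of the other classes. Of the clusters above a log2 fold of 5, 3371 (93.7%) were 20 bases or narrower and 225 were wider, and the narrow ones lay in 217 host genes. The share above a log2 fold of 5 was 14.2% ± 4.82 in R6/2 and 15.2% ± 4.67 in NT cortex females, against 5.24% ± 0.396 in R6/2 and 9.29% ± 5.09 in NT cortex males (SD, n = 4 each).

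**Figure D3:**
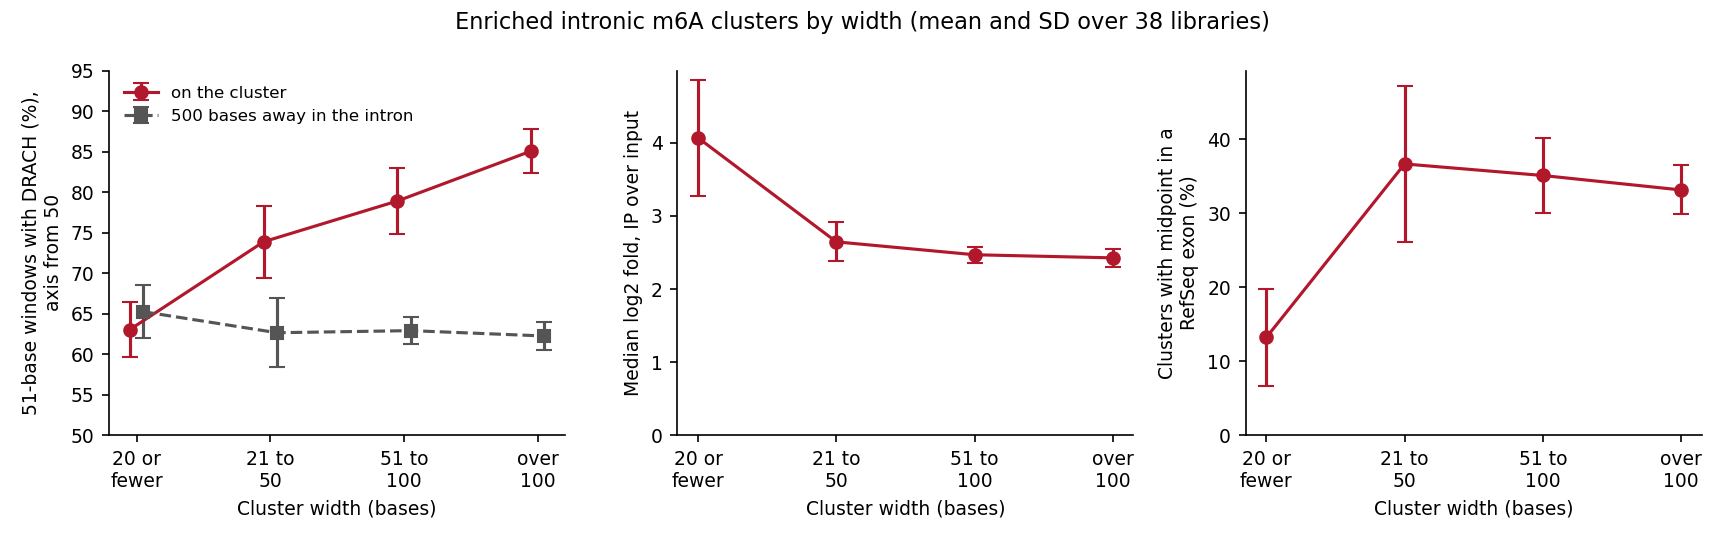
Enriched intronic clusters by width class in bases: share of 51-base windows with DRACH (%; the axis starts at 50) on the cluster and 500 bases away, median log2 fold over input, and share of clusters with the midpoint in a RefSeq exon (%), as mean and SD over 38 libraries. The narrowest class has the highest fold, 4.07, and a DRACH share of 63.0%, no higher than that of the moved windows, at 65.2%.

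Recurrent intronic sites were few. Of 1733 intronic sites, 27.6% were found in at least 19 libraries and 93 (5.37%) in all 38, against 37.2% of sites in coding sequence and 43.2% of those in 3′ UTRs in all 38. Of the 93, 20 lay in curated and 21 in predicted RefSeq exons and 52 in neither. The wider sites (1498) had DRACH in 82.7% and lay in RefSeq exons in 26.6%, whereas the 235 sites made of clusters of 20 bases or fewer had DRACH in 60.4% and lay in RefSeq exons in 5.96%. The highest folds among sites in all libraries came from narrow ones. The median log2 fold was 8.78 for Gm37388, 8.62 for the protocadherin Pcdha5, 7.44 for 1700025F22Rik, 7.07 for the ephrin receptor Epha6, 5.80 for Adtrp and 5.42 for Gm37240. The next ones were wide: Dram1, a lysosomal membrane protein, at 3.82 from clusters of 121 bases, 3300002I08Rik at 3.80 from 181 bases, and Pip5k1b, a phosphoinositide kinase, at 3.73 from 54.5 bases. The last 3 lay in RefSeq exons, and the other named ones did not.

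R6/2 mice were compared with NT mice to see whether the disease genotype shifts intronic m6A. The intronic share of enriched clusters did not pass the test in either region. In striatum its lowest, median and highest values were 1.29, 1.88 and 2.39% in R6/2 and 1.22, 1.75 and 2.47% in NT libraries (exact permutation within sex, two-sided, adjusted p = 0.407 over 64 library tests). In cortex they were 1.29, 1.54 and 1.91% in R6/2 and 1.35, 1.45 and 2.20% in NT libraries (adjusted p = 0.786). The groups overlapped in both regions.

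The distribution over intron lengths differed between the genotypes. In cortex the share of enriched intronic clusters in introns over 100 kb was 8.64, 10.6 and 12.9% as lowest, median and highest in R6/2 and 10.8, 13.1 and 14.2% in NT libraries, with means of 10.7% ± 1.58 and 12.8% ± 1.34 (SD, n = 8 each). The difference of -2.03 percentage points (exact permutation p = 0.000408, the smallest these 4900 labelings allow, adjusted p = 0.0131) was -2.23 in males and -1.84 in females and passed in 16 of 16 fits without 1 library. The share in introns under 10 kb was higher, at 55.8% ± 4.16 in R6/2 and 51.8% ± 4.42 in NT cortex (adjusted p = 0.0240), but not after clusters in RefSeq exons were left out. In striatum the share over 100 kb was 9.16, 11 and 13.8% in R6/2 and 11.1, 12.6 and 17% in NT libraries, with means of 11.3% ± 1.87 and 13.4% ± 2.50 (difference -2.12, adjusted p = 0.0187). The striatal difference rested in part on Rabgap1l, whose clusters in such introns averaged 17.8 in R6/2 and 27.6 in NT libraries. Without that gene the shares were 10.1% ± 1.71 and 11.3% ± 2.07 and the test no longer passed (adjusted p = 0.157), nor did it without clusters in RefSeq exons. In cortex the difference without Rabgap1l was -2.04 (adjusted p = 0.0131). Gm20388 averaged 21.5 such clusters in R6/2 and 22.75 in NT cortex. Without it the difference was -1.82 in cortex (adjusted p = 0.0131) and -2.03 in striatum (adjusted p = 0.0174). The share of exonic clusters in genes with an intron over 100 kb was 7.16% ± 0.110 in R6/2 and 7.29% ± 0.357 in NT cortex (adjusted p = 0.533). In striatum it was 6.54% ± 0.384 in R6/2 and 6.70% ± 0.369 in NT (adjusted p = 0.443). This measure goes by gene and not by the intron that holds a cluster, and Gm20388, without exonic clusters, cannot enter it. It is thus no match for the intronic share. Striatal clusters were also less often in the last intron, at 11.8% ± 1.11 in R6/2 and 13.9% ± 1.32 in NT (adjusted p = 0.0187). In striatum, introns over 100 kb averaged 151 clusters in R6/2 and 157.25 in NT libraries, and last introns 157.75 and 165.12. In cortex, introns over 100 kb averaged 113.5 and 128.12. All enriched intronic clusters averaged 1352 and 1208 in striatum and 1065 and 1002 in cortex, and neither difference passed. A lower share is thus not in itself a loss of clusters. With all listed clusters none of these shares passed. Cluster lists carry no read counts, so fewer RNA molecules and less methylation per molecule cannot be told apart, nor can fewer cells of a type and less RNA per cell in these bulk tissues.

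Host genes were tested by their number of enriched intronic clusters per library (limma on log2 of the normalised number plus 0.5, with sex as covariate), in 1 table with the exonic numbers of all genes. In cortex 12 of 184 intronic rows passed an adjusted p of 0.05 (6.52%), 5 higher and 7 lower in R6/2. Of all 8446 intronic and exonic rows 5.91% passed, 2.36% higher and 3.55% lower. In striatum 20 of 240 passed (8.33%), 11 higher and 9 lower. Of all 9050 rows 8.93% passed, 3.45% higher and 5.48% lower. Intronic rows were thus called about as often as rows in general. Among the called rows 5 were shared by both regions, all in the same direction, which was 41.7% of the cortical and 25% of the striatal calls: Glcci1 and Ppp1r16b were lower and Metap1d, Terf2 and Jakmip3 higher. The filter kept rows with at least 2 clusters in at least 50% of the libraries. Ppp1r16b in cortex and Glcci1 in both regions passed it mainly through NT libraries, and Jakmip3 in striatum reached 2 clusters in only 8 of 16 libraries. Their shared calls are thus a description only. Prkce in cortex and Lcmt1 in striatum had a median under 2 in 1 genotype, so their p-values carry a similar limit. The labels do not say whether both regions came from the same mice.

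In R6/2 cortex Nos1ap had 5.07, 6.40 and 8.23 normalised intronic clusters as lowest, median and highest in R6/2 and 10.7, 13.5 and 16.9 in NT libraries, with means of 6.50 ± 1.25 and 13.4 ± 1.95 (log2 change -1.0 ± 0.11 SE, adjusted p = 1.24e-05). The genotypes did not overlap. The exonic clusters were 3.42 ± 0.816 in R6/2 and 3.74 ± 0.887 in NT (log2 change -0.11, adjusted p = 0.767), and the intronic change differed from the exonic one by -0.89 (adjusted p = 0.0311). That call was lost without R6/2 male 1, R6/2 male 3 or R6/2 female 3, where no cortical gene was called. The bases covered by its intronic clusters did not pass the test, however, at 679 ± 49.3 in R6/2 and 711 ± 47.1 in NT cortex (log2 change -0.13, adjusted p = 0.164). Over all 38 libraries 99.8% of the Nos1ap clusters lay in curated RefSeq exons, and without RefSeq exons the row could not be tested. Prkce, protein kinase C epsilon, had 0, 1.76 and 2.83 clusters in R6/2 and 2.14, 3.64 and 5.50 in NT libraries (log2 change -1.31 ± 0.29, adjusted p = 0.00834), and its covered bases were lower as well (35.3 ± 44.2 and 205 ± 123, log2 change -1.56, adjusted p = 0.00434). Its exonic clusters numbered 39.0 ± 3.03 in R6/2 and 42.6 ± 3.72 in NT (adjusted p = 0.263). Of its intronic clusters 41.8% were 20 bases or narrower, and without such clusters the row had too few to be tested. Glcci1, a glucocorticoid-induced gene, had 0, 0.514 and 2.09 in R6/2 and 1.10, 2.73 and 7.08 in NT libraries (log2 change -1.73 ± 0.42). In striatum it had 0, 1.25 and 3.04 in R6/2 and 1.94, 2.77 and 4.28 in NT libraries (-1.32 ± 0.36). In both regions the row passed the filter mainly through NT libraries. Its changes are thus a description only, and their tests on the number of clusters are not given.

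Other cortical rows were called as well, some of them not in every fit without 1 library. Rasgrf1, a neuronal exchange factor for Ras, changed by -0.78 ± 0.21 (5.11 ± 2.35 in R6/2 and 8.88 ± 3.43 in NT, adjusted p = 0.0281) and remained called in 10 of 16 fits without 1 library. Gm20518 changed by -1.06 ± 0.29 (9 of 16 fits). For Ppp1r16b, a regulatory subunit of protein phosphatase 1, all R6/2 libraries but male 4 (2.68) stood between 0 and 1.04. The row thus passed the filter mainly through NT libraries and could be tested in 8 of 16 fits without 1 library. Its change of -1.30 is a description only, and its test is not given. Covered bases did not pass for Rasgrf1 or Glcci1 (adjusted p = 0.185 and 0.0525). Metap1d, a mitochondrial methionine aminopeptidase, was higher by 1.37 ± 0.39 (4.36 ± 1.26 in R6/2 and 1.93 ± 1.74 in NT, 7 of 16 fits, covered bases adjusted p = 0.0686). Crtac1, a secreted cartilage acidic protein, had 2.87 ± 1.29 clusters in R6/2 and 1.16 ± 0.354 in NT libraries, and its exonic clusters were 4.60 ± 0.809 in R6/2 and 5.64 ± 2.07 in NT. All NT libraries but 1 stood between 0.928 and 1.12, so the row passed the filter mainly through R6/2 libraries. It could be tested in 8 of 16 fits without 1 library, and its test is not given. Of the Crtac1 clusters 96.7% lay in RefSeq exons. Kctd16, Terf2 and Jakmip3, picked after their values were seen, changed by -1.31, 1.21 and 1.47. Kctd16 could be tested in 8 of 16 fits without 1 library. It thus reached 2 clusters in only 8 of 16 libraries, and its change is a description only.

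In R6/2 striatum the called rows included Rabgap1l, which had 14.2, 16.9 and 22.4 in R6/2 and 22.5, 27.3 and 35.2 in NT libraries, with means of 17.4 ± 2.66 and 27.7 ± 3.81 (log2 change -0.66 ± 0.09, adjusted p = 7.13e-05). No R6/2 library reached the lowest NT library. Exonic clusters of Rabgap1l were 6.12 ± 2.21 and 5.80 ± 1.32 (log2 change 0.03, adjusted p = 0.943). As with Nos1ap, covered bases did not pass the test, at 1559 ± 126 in R6/2 and 1603 ± 114 in NT striatum (log2 change -0.08, adjusted p = 0.442). Over all 38 libraries 95.7% of the Rabgap1l clusters lay in curated RefSeq exons, and without RefSeq exons the row could not be tested. Nsun7, a member of the NSUN family of RNA methyltransferase-like proteins, had 2.86, 9.25 and 14.9 clusters in R6/2 and 0.920, 4.08 and 8.56 in NT libraries (log2 change 1.21 ± 0.21, adjusted p = 0.000484), 97.7% of them in intron 4 and none in a RefSeq exon, and its covered bases were higher too (log2 change 0.80, adjusted p = 0.0426). Lcmt1, which methylates the catalytic subunit of protein phosphatase 2A, had 0.954, 3.80 and 6.09 in R6/2 and 0, 0.985 and 3.21 in NT libraries (1.62 ± 0.30, adjusted p = 0.00119), all in its first intron. The genotypes overlapped for both genes, and every male stood above every female of its own genotype for Nsun7.

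Further striatal rows that were higher in R6/2 were 2900026A02Rik (1.08 ± 0.25, adjusted p = 0.00843), Metap1d (0.84 ± 0.19) and Fbxw4, an F-box protein (0.72 ± 0.17, 3.17 ± 0.525 in R6/2 and 1.75 ± 0.437 in NT). Terf2, a telomere-binding protein (0.71 ± 0.19), and Prmt9, an arginine methyltransferase that acts on a splicing factor (0.64 ± 0.16), were higher as well. Among the lower ones was Anks1b, a postsynaptic scaffold protein, with 0, 0.900 and 4.50 clusters in R6/2 and 2.14, 4.17 and 8.75 in NT libraries (-1.96 ± 0.42). The row passed the filter mainly through NT libraries, so the change is a description only and its test on the number of clusters is not given. Its change was -0.87 in males and -3.06 in females, a difference that was not tested. Further ones were Wdr31 (-1.08 ± 0.31), Ldlrad4, an inhibitor of TGF-beta signalling (-1.06 ± 0.20), Entr1, an endosomal trafficking protein (-0.84 ± 0.22) and Ppp1r16b (-0.64 ± 0.19). Without 1 library Wdr31 was called in 11 and Ppp1r16b in 9 of 16 fits, and without RefSeq exons Entr1 was at -0.52 (adjusted p = 0.20). On covered bases the log2 change did not pass for 6 of these striatal rows. It was 0.41 for Terf2 (adjusted p = 0.133), 0.25 for Prmt9 (0.325), -1.45 for Anks1b (0.19), -0.92 for Wdr31 (0.146), -0.56 for Ldlrad4 (0.0761) and -0.40 for Ppp1r16b (0.244). For Anks1b and Ldlrad4 the exonic clusters fell too, by 0.63 and 0.55 on the log2 scale (adjusted p = 0.000646 and 0.00269). RefSeq exons held 88.7% of the Ldlrad4 clusters and all those of 2900026A02Rik. By number of clusters, Prmt9, Terf2 and 2900026A02Rik differed from their exons: their exonic changes were -0.21, -0.09 and 0.02, and the differences of 0.85, 0.80 and 1.07 were called (adjusted p = 0.0187, 0.0244 and 0.0339). Without R6/2 male 2 or R6/2 female 2 only 1 gene was called higher in this test, so not all of these calls held.

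**Figure D4:**
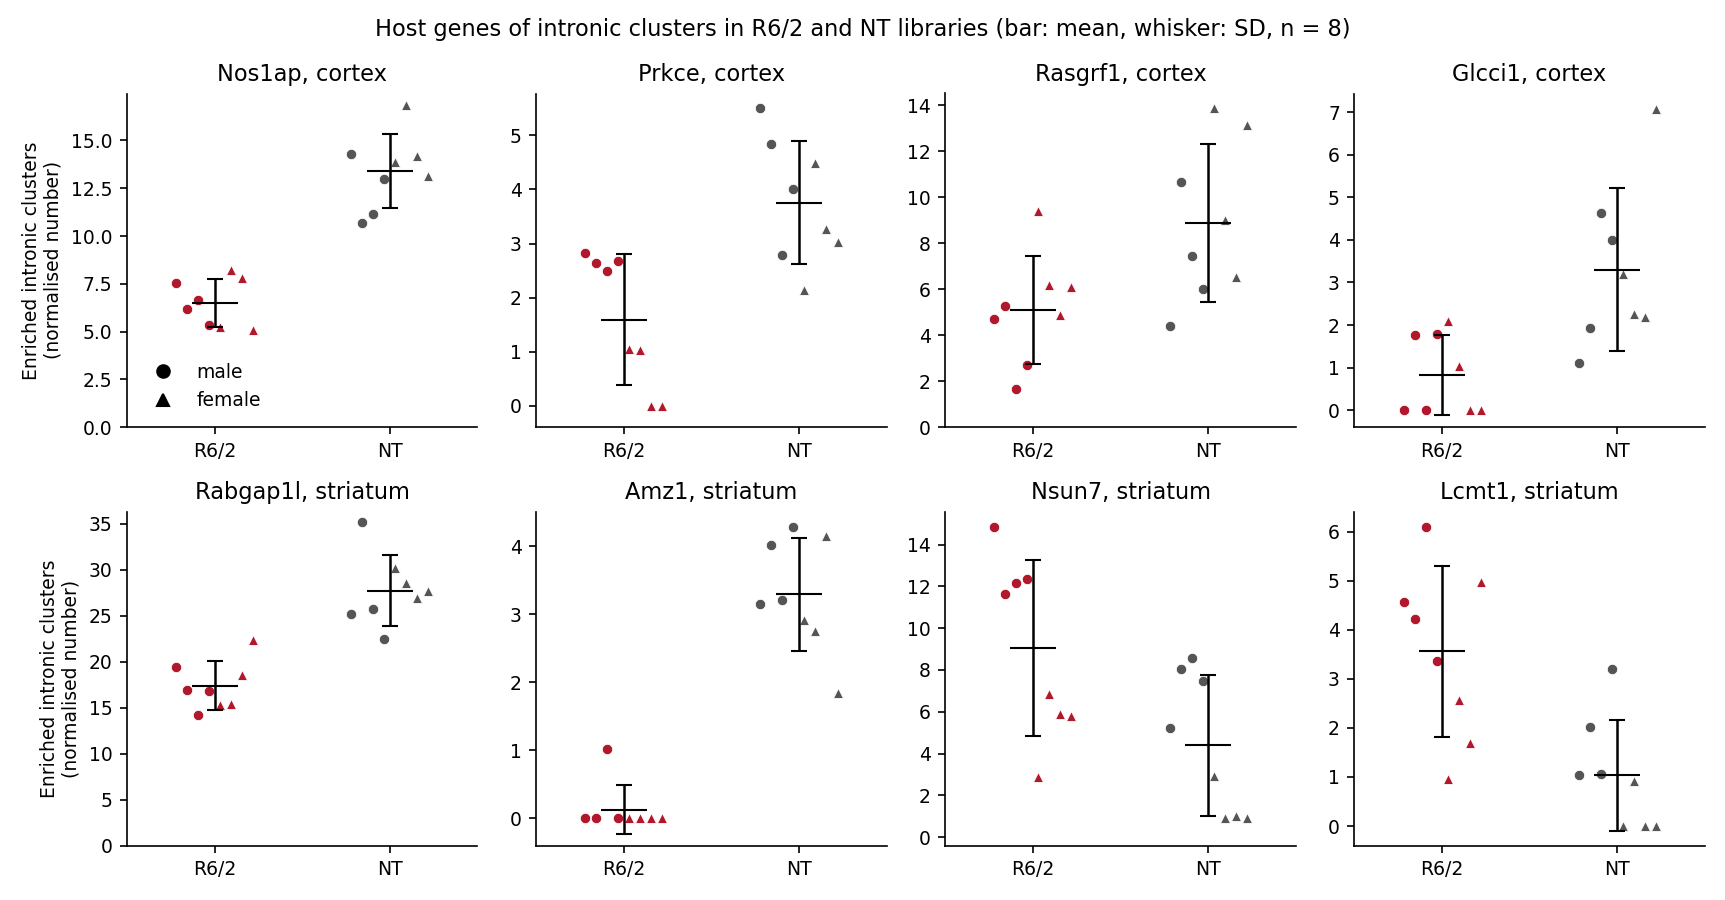
Normalised number of enriched intronic clusters per library of 8 host genes, 4 in cortex (upper row) and 4 in striatum (lower row), R6/2 left of NT, with mean and SD (n = 8 per genotype), circles for males and triangles for females. Nos1ap averages 6.50 in R6/2 and 13.4 in NT cortex, Rabgap1l 17.4 and 27.7 in striatum, and neither overlaps between the genotypes, whereas Rasgrf1, Nsun7 and Lcmt1 overlap. Over all 38 libraries 99.8% of the Nos1ap and 95.7% of the Rabgap1l clusters lie in curated RefSeq exons.

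At single sites the genotypes were compared by the number of libraries with an enriched cluster. No intronic site passed in cortex (0 of 1050, 64 at an unadjusted exact permutation p under 0.05) or in striatum (0 of 1339, 83 at an unadjusted p under 0.05). With 8 against 8 libraries the smallest p is 0.000408. Too few of all 37877 and 40976 sites reached it for it to pass the adjustment, and in striatum its adjusted value was 0.356. As a description, 0 of the cortical intronic sites (0%) and 5 of the striatal ones (0.373%) were present in all 8 libraries of 1 genotype and in none of the other, and of all m6A sites 0.106% in cortex and 0.115% in striatum were. A site in intron 1 of Fbxw4 and one in intron 5 of Ccdc30, a coiled-coil protein, were in 8 R6/2 and 0 NT striatum libraries, and in cortex in 2 R6/2 and 1 NT library and in 2 and 0. A site in intron 10 of Amz1, a metallopeptidase, one in intron 20 of Dclk1, a neuronal microtubule-associated kinase, and one in intron 6 of the keratin gene Krt10 were in 0 R6/2 and 8 NT striatum libraries. The Dclk1 site was in 0 R6/2 and 6 NT cortex libraries and in 3 ASO and 3 PBS libraries, and those of Amz1 and Krt10 in no cortex library. For Amz1 the sum over libraries was 1 intronic cluster in R6/2 and 26 in NT striatum, a ratio of 0.0385 (exact 95% interval 0.000938 to 0.234, which covers counting error only). No R6/2 library held more than 1 of them, so the row passed the filter on low numbers only through NT libraries and its test is not given.

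The intronic change was tested against the exonic change of the same gene where both rows were measured, a test added after the data were seen. It differed for 10 of 126 genes in cortex (7.94%) and 9 of 173 in striatum (5.2%). The cortical count was 0 without R6/2 male 1, R6/2 male 3 or R6/2 female 3, 1 without R6/2 female 2, 2 without R6/2 male 2 or male 4, 4 without NT female 1 and 6 without NT male 2, NT male 4, NT female 4 or R6/2 female 4. The striatal count was 2 without R6/2 male 2 or female 2, 3 without NT male 2 and 4 without R6/2 male 1, female 3 or female 4. No R6/2 effect on an intronic row passed a test for a difference between striatum and cortex (limma, 0 of 199, 16 at an unadjusted p under 0.05, and 0.219% of all 8674 rows passed). Nos1ap (difference 0.83, adjusted p = 0.0517) and Rabgap1l (-0.69, adjusted p = 0.0823) came closest, and 1 or 2 rows passed when NT striatum male 2 or female 3, NT cortex male 2, R6/2 striatum male 4, or R6/2 cortex male 1, male 3 or female 2 was left out.

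**Figure D5:**
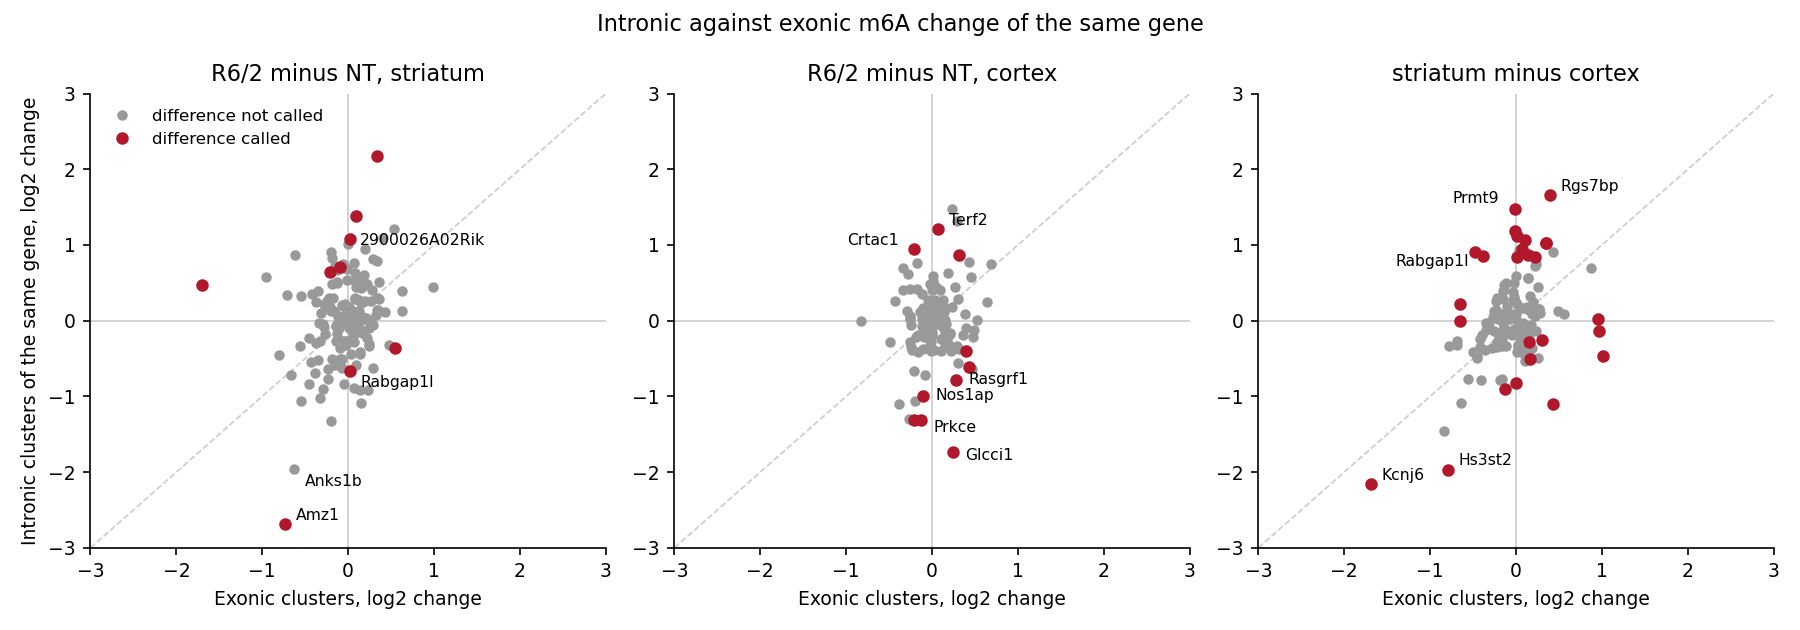
Log2 change of intronic clusters (vertical) against that of exonic clusters of the same gene (horizontal) for R6/2 minus NT in striatum and in cortex and for striatum minus cortex, with genes whose changes differed by the test in red and equal change as a dashed line. Rabgap1l, with 95.7% of its intronic clusters in curated RefSeq exons, lies at -0.66 and 0.03 in R6/2 striatum, and at 0.86 and -0.38 in striatum against cortex.

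Gene lists of the disease and of cell types touched few testable introns. Of 195 genes of a list of striatal genes lower in Huntington's disease models, 3 were tested in striatum (Anks1b, Ppp1r16b and Rgs7bp). Of these 2 were called, both lower (Anks1b and Ppp1r16b), where 8.33% of all intronic rows were called. The Anks1b row passed the filter mainly through NT libraries, so its call is a description only. In cortex, where 6.52% of intronic rows were called, only Ppp1r16b was tested. That row passed the filter mainly through NT libraries, so its test is not given. These numbers are too small to set against the share over all rows. Of 71 genes of the list of those higher, only Nsun7 was tested, higher in striatum and not called in cortex (0.77). Of 40 long synaptic genes such as Cntnap2, Rbfox1 and Nrxn3, 10 were tested in striatum and 6 in cortex, and none was called. Their median log2 changes were 0.06 and 0.02, against 0.05 and -0.05 over all intronic rows. No gene of the m6A machinery list and no medium spiny neuron or astrocyte marker had enough intronic clusters to be tested in either region. The mouse Htt gene, which carries no expanded repeat in R6/2 mice, had no enriched intronic cluster in any library, with 0 to 3 listed intronic clusters per library and none in intron 1.

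The regions were compared to see how intronic m6A differs between striatum and cortex. Striatum libraries had more enriched intronic clusters, 828, 1266 and 1720 as lowest, median and highest, against 796, 974.5 and 1335 in cortex libraries (means 1280 ± 272 and 1034 ± 166, SD, n = 16 each, permutation within sex and genotype, adjusted p = 0.0311). The difference did not pass after clusters in RefSeq exons were left out. Their share of all enriched clusters did not pass, at 1.77% ± 0.397 in striatum and 1.58% ± 0.265 in cortex (adjusted p = 0.246), with a difference of 0.63 percentage points in males and -0.24 in females that was not tested for sex. The median log2 fold over input was lower in striatum, 2.60 ± 0.116 against 2.79 ± 0.191 (adjusted p = 0.0187), and the share in repeats higher, 11% ± 2.17 against 9.64% ± 1.40 (adjusted p = 0.0240). The fold differed by -0.050 in males and -0.33 in females, and the repeat share by 0.68 and 2.13 percentage points. The number of clusters differed by 403 in males and 89.5 in females. These splits by sex were not tested. With all listed clusters the differences in number, fold and repeat share did not pass. Fewer intronic m6A clusters overlapped a site of TDP-43 in matching tissue, 5.63% ± 1.47 in striatum and 6.64% ± 1.25 in cortex (adjusted p = 0.0311), with 18547 TDP-43 sites in striatum and 37155 in cortex. The number of TDP-43 sites moves with that share, and its part in the result was not tested. The difference no longer passed when clusters that touch an exon, or those in RefSeq exons, were left out.

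Between the regions 47 of 199 intronic rows passed (23.6%), 24 higher and 23 lower in striatum, and of all 8674 rows 27% passed, 14.4% higher and 12.6% lower. The balance differed by sex, with 56 intronic rows higher and 5 lower in males alone, and 14 higher and 31 lower in females alone. That difference was not tested. Rabgap1l had 13.6, 21.5 and 33.9 clusters in striatum and 6.93, 11 and 15.8 in cortex libraries (log2 change 0.86 ± 0.10, adjusted p = 1.31e-08). Its exonic clusters changed the other way, with 5.70 ± 1.71 in striatum and 7.48 ± 1.87 in cortex (-0.38, adjusted p = 0.0136), and the changes differed by 1.24 (adjusted p = 5.45e-07). Its covered intronic bases were higher as well, by 0.42 (adjusted p = 0.00286). Without RefSeq exons, which held most of its clusters, the row could not be tested. Kcnj6, the potassium channel subunit GIRK2, had 0, 1.36 and 5.04 in striatum and 4.27, 6.60 and 13.2 in cortex libraries (-2.16 ± 0.19, adjusted p = 5.88e-12), all in its last intron and in RefSeq exons, and its exonic clusters fell by 1.69 on the log2 scale. Hs3st2, a heparan sulfate sulfotransferase of the cortical excitatory list, was at 0.841 ± 0.785 in striatum and 3.92 ± 0.932 in cortex (-1.97 ± 0.24), with exonic clusters lower by 0.79.

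Rgs7bp, a membrane anchor of an RGS protein, changed by 1.65 but could be tested in only 16 of 32 fits without 1 library. It thus reached 2 clusters in only 16 of 32 libraries, so the change is a description and its test is not given. Other rows higher in striatum were Prmt9 (1.47 ± 0.25), Nrg1, neuregulin 1 (1.06 ± 0.27), Ppp1r16b (1.02 ± 0.21) and Nsun7 (0.90 ± 0.19). Ldlrad4 (0.86 ± 0.21), Terf2 (0.84 ± 0.19) and Taf4, a subunit of TFIID (0.84 ± 0.17), were higher too. Lower ones were Cadm1, a synaptic adhesion molecule (-1.09 ± 0.31), Avl9 (-0.91 ± 0.25), Spen, a transcriptional repressor (-0.83 ± 0.28), Farp1, a synaptic guanine nucleotide exchange factor (-0.78 ± 0.14), Pde4d, a cAMP phosphodiesterase (-0.77 ± 0.24), and 2900026A02Rik (-0.76 ± 0.19). Of the Avl9 clusters 98.4% were 20 bases or narrower. In females, whose libraries differed as a set from those of males, the lower ones had their larger change. It was -2.06 in females and -0.11 in males for Cadm1, -2.03 and 0.21 for Avl9, -1.48 and -0.17 for Spen, -1.35 and -0.18 for 2900026A02Rik, -1.20 and -0.33 for Pde4d, and -1.08 and -0.49 for Farp1, and these differences were not tested. The Spen change did not pass on covered bases (adjusted p = 0.0779), nor did that of Nrg1 without RefSeq exons (0.80, adjusted p = 0.0599). The intronic change differed from the exonic one for 26 of 139 genes (18.7%), 15 higher and 11 lower, with 17 called when R6/2 striatum female 3 was left out. Prmt9 had exonic clusters at 5.96 ± 1.23 in striatum and 5.99 ± 1.28 in cortex and intronic ones at 3.22 ± 1.09 and 1.07 ± 0.909 (difference 1.48, adjusted p = 0.000132).

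The ASO experiment asked how loss of TDP-43 affects m6A. Tardbp, which encodes TDP-43, had 7, 8 and 9 enriched exonic clusters in the ASO and 17, 18 and 25 in the PBS libraries, and no intronic one. Enriched intronic clusters numbered 785, 798 and 800 in ASO and 816, 884 and 990 in PBS libraries, and their share of all enriched clusters was 0.952% ± 0.0048 and 0.958% ± 0.0463 (exact permutation p = 0.8; the smallest p that 3 against 3 libraries allow is 0.1). The share of clusters of 20 bases or fewer was 15.9, 16 and 16.6% in ASO and 23.1, 25.2 and 26.7% in PBS libraries, without overlap (exact permutation p = 0.1). First introns held 29.5% ± 0.601 in ASO and 31.7% ± 0.416 in PBS, and the share on a TDP-43 site of cortex was 6.55% ± 0.506 and 6.92% ± 1.02 (exact permutation p = 0.6).

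By limma 51 of 171 intronic rows passed (29.8%), 18 higher and 33 lower in ASO, and of all 9382 rows 32.4% passed, 14% higher and 18.4% lower. These shares rest on the small spread within treatments. The direction of most calls turned when a PBS library was left out. There were 16 higher and 3 lower rows without PBS 1, 19 and 6 without PBS 2, and 22 and 11 without PBS 3. There were 8 higher and 32 lower without ASO 1, 9 and 12 without ASO 2, and 8 and 15 without ASO 3. On covered bases 4 were higher and 14 lower. Hs3st2 was lower, with 1.03, 1.05 and 2.12 clusters in ASO and 3.62, 3.85 and 4.92 in PBS libraries (-1.32 ± 0.26, adjusted p = 0.0124), while its exonic clusters were higher (0.54, adjusted p = 0.00106), and covered bases were lower too (-1.06, adjusted p = 0.0153). Cx3cr1, the fractalkine receptor of microglia, was higher, with 4.13, 5.23 and 5.31 in ASO and 0.984, 1.81 and 1.93 in PBS libraries (1.40 ± 0.23, adjusted p = 0.00773). Me3 was higher by 1.13 ± 0.32, Kcnj6 by 1.12 ± 0.14 and Ccdc39, a ciliary protein, by 0.94 ± 0.18. The change in covered bases was 0.15 for Cx3cr1 and passed for none of these 4. Gm20518 and Srrm2, a scaffold of nuclear speckles, each had 9 clusters in ASO and 3 in PBS libraries in all, a ratio of 3 (exact 95% interval 0.749 to 17.2). The interval covers counting error only and takes the clusters of the 3 libraries as independent, which near-identical intervals are not, so it is too narrow. Both rows could be tested in only 3 of 6 fits without 1 library, so only 3 of 6 libraries reached 2 clusters. They thus passed the filter mainly through ASO libraries, and the ratio is a description only. By number of clusters the log2 change was 0.60 for Glcci1, 0.42 for Entr1, -0.50 for Pip5k1b and Odf2, -0.49 for Gm37388, -0.43 for Dido1, -0.38 for Mia3, -0.37 for Cdk17 and -0.32 for Il11ra1, each called. None of these 9 passed on covered bases, where Pip5k1b, Odf2 and Il11ra1 changed sign (0.17, 0.32 and 0.094). Of 6 fits without 1 library, Odf2, Gm37388 and Cdk17 were called in 1, Dido1 and Me3 in 2 and Il11ra1 in 3.

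TDP-43 eCLIP libraries of the same R6/2 and NT tissues gave a reference for intronic signal in another assay, made from crosslinked tissue, for which the methods describe no poly(A) selection. Introns held 25.2% ± 7.68 of their listed clusters but 2.00% ± 0.644 of the enriched ones (1.39 to 4.12%, SD, n = 32), with 203 to 946 enriched intronic clusters per library. The share of these in introns over 100 kb was 8.48% ± 2.20. As in the m6A libraries, the intronic share was far smaller among enriched than among listed clusters.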

How the data were processed

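The authors made m6A eCLIP libraries from poly(A)-selected RNA and TDP-43 eCLIP libraries from UV-crosslinked tissue, sequenced IP and input, mapped the reads to mm10 and called clusters with CLIPper. The deposited lists of 70 IP libraries (38 m6A, 32 TDP-43) give per cluster the authors' -log10 p of IP against input (capped at 400) and the deposited log2 fold of IP over input. The 70 input libraries were not used here. The lists give neither reads nor depth, so precision is limited by the number of libraries.

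The midpoint and strand of a cluster decided its GENCODE vM21 intron, and clusters were overlaid with RefSeq exons of GRCm38. Enriched meant a p of 0.001 or less; the methods' further limit on the fold was an alternative. Enriched clusters per gene, divided by median-ratio size factors, were tested as log2(number + 0.5) with limma 3.58.1 (lmFit, eBayes with trend) in R 4.3.3, with sex, and for the regions genotype, as covariates. Rows with at least 2 clusters in at least 50% of the libraries were kept, and p was adjusted by Benjamini-Hochberg over all intronic and exonic rows. Covered bases were tested likewise with 50 added. Library features were compared by two-sided permutation within sex, exact for R6/2 against NT (4900 labelings) and ASO against PBS (20), with 100000 resamples for the regions, adjusted over 64 tests. Scripts were tested on simulated data.

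The members, features and gene lists were chosen with earlier results of these data known. Genes named were the 10 hosts with most clusters, the 10 sites in most libraries, the 8 highest and 8 lowest called changes per comparison with a mean of at least 2 clusters, called members of the lists, and Htt; a few genes and a site that these rules name are not reported here. Amz1, Kctd16, Jakmip3, Dclk1, Ccdc30, Krt10, Terf2 in cortex, the Fbxw4 site and the sequences beyond the recurrent sites were chosen after their values were seen. Alternatives were the threshold, listed clusters, the filter, normalisation, pseudocount, covered bases, a replicate block, each sex alone, each library left out, and, chosen after seeing the data, wider clusters, no RefSeq exon, and leaving out leading hosts. The test of intronic against exonic changes was also added after the data were seen.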

Additional observations from a re-analysis of the deposited data

Results flagged for a closer look

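Of 110 groups of values examined, 5 held a sample whose gap to the others exceeded Dixon's 95% critical value, and chance flags about 1 in 20 groups. For Amz1, R6/2 striatum male 3 had 1.01 normalised intronic clusters and the other R6/2 striatum libraries 0. For Anks1b, R6/2 striatum male 4 had 4.50, against 0 to 2.03. For Ppp1r16b, R6/2 cortex male 4 had 2.68, against 0 to 1.04. For Crtac1, NT cortex female 4 had 2.02, against 0.928 to 1.12. The share of exonic clusters in genes with an intron over 100 kb was 6.47% in NT cortex male 1, against 7.23 to 7.59% in the other NT cortex libraries.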

How the results depend on the processing

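The intronic share of enriched clusters, called in no comparison, changed sign for striatum minus cortex with a log2 fold over 3 added (-0.27 percentage points) and in females alone (-0.24), and passed in males alone (0.63) and with clusters wider than 20 bases (0.27). It changed sign for R6/2 minus NT cortex with all listed clusters (0.70), with wider clusters (0.038) and in males alone (0.040), and for ASO minus PBS with all listed clusters (0.51), wider clusters (0.056) and no cluster in a RefSeq exon (0.012). Of the library features, 18 passed with wider clusters and 5 without RefSeq exons, against 9. Intronic rows called in R6/2 cortex, R6/2 striatum, ASO and between the regions numbered 0, 0, 3 and 2 with the log2 fold over 3, 111, 139, 2689 and 518 with all listed clusters, 1, 7, 22 and 14 at a -log10 p of 10 or more, and 47, 51, 132 and 250 with no filter beyond 1 cluster in 3 libraries; with all listed clusters 2 rows differed in the R6/2 effect between regions. With all listed clusters the calls were 89 higher and 22 lower in R6/2 cortex, 91 and 48 in R6/2 striatum, 1654 and 1035 for ASO and 353 and 165 for the regions, and with no filter 179 and 71 for the regions. Males alone gave 4 in cortex and 9 in striatum, females alone 2 and 9. The ASO count was 18 on covered bases, 29 with wider clusters and 33 without RefSeq exons, and the region count 29 without RefSeq exons.

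Same-numbered samples did not deviate together (correlations from -0.16 to 0.10), so the numbers are not known to pair samples. With a replicate block 14, 19, 27 and 46 rows were called, none for the difference of the R6/2 effect, and the shares had a permutation p of 0.672, 0.297, 0.75 and 0.196. Leaving out 1 library gave share differences of -0.12 to 0.026 in cortex, 0.099 to 0.21 in striatum, -0.030 to 0.016 for ASO and 0.16 to 0.23 for the regions, counts of 6 to 11, 15 to 22, 19 to 40 and 41 to 49, no called site (0 to 0), 0 to 2 for the difference of the R6/2 effect, and 0 to 13, 2 to 11 and 17 to 25 for intronic minus exonic changes. The cortical count was 7 without R6/2 male 2, R6/2 male 4 or NT female 1 and 6 without R6/2 female 3. The share difference in cortex was above 0 without R6/2 female 3 or NT female 1, and that for ASO without PBS 3.

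Among 61 results for named genes under 1600 settings, 1424 kept direction and call, 166 lost the call and 10 changed sign. With all listed clusters these were Ppp1r16b in cortex (0.20), and for ASO Glcci1 (-0.28) and Gm37388 (0.028). On covered bases they were, for ASO, Kcnj6 (-0.061), Ccdc39 (-0.21), Il11ra1 (0.094), Pip5k1b (0.17) and Odf2 (0.32). Il11ra1 was 1.84 with the log2 fold over 3, and Odf2 0.35 at a -log10 p of 10 or more. Apart from settings that test fewer clusters or samples by construction, the cause was not tested.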
